A study of Mus musculus with 8 samples.

Results

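OCT4 (Pou5f1) is a POU-domain transcription factor that holds embryonic stem cells in the pluripotent state. Its POU domain reads the octamer ATGCAAAT, often beside a site for its partner SOX2. In CUT&RUN an antibody against the factor tethers a nuclease to chromatin, and the short fragments that the nuclease releases are sequenced. A conventional library takes these fragments irrespective of cytosine modification. Bisulfite conversion tells methylated from unmethylated cytosine, although methylated and hydroxymethylated cytosine read alike after it, while hmC-Seal attaches a tag to hydroxymethylcytosine and pulls the tagged fragments down.

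The results concern the OCT4-bound stretches that were called in a conventional library. All samples came from untreated male E14 mouse embryonic stem cells, labelled as strain C57BL/6J and grown without feeders in a serum-free medium with kinase inhibitors (2i). They comprised 2 replicates each of conventional (5 ng of released DNA), bisulfite and hmC-Seal (30 ng) OCT4 libraries. Control libraries made with IgG entered only through the peak calls and their fold enrichment, p and q. The labels list IgG libraries for the conventional and bisulfite preparations, and which IgG library the hmC-Seal peaks were called against is not given in the sources used here. No deletion of Pou5f1 and no second cell line was included, and nothing in the labels says that the replicates were separate cultures.

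A stretch was a run of called peaks from any of the 6 OCT4 lists that overlapped by at least 1 bp. It had to lie on chromosomes 1 to 19 or X, outside 100 kb bins that held 10 or more summits in any list. Of 15578 such stretches, 273 (1.75%) held an entry of at least 1 conventional list and were the members described here, and 15305 did not. The members were chosen by their conventional calls, so their conventional values are descriptive and were not tested. Of the 227 and 265 entries in conventional replicates 1 and 2, 29 and 44 lay on the mitochondrial chromosome and 186 and 201 lay in members. The 5 dense bins removed 79 stretches, of which 6 held a conventional entry. A member was placed at its conventional summit of highest −log10 q, the strength of the call against IgG, and was named after the gene start nearest to it.

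The sequences that follow were chosen because they put the motif read by OCT4 beside the conventional calls. Of the 273 members, 11 touched a promoter window, defined as 250 bases before to 50 bases after a start in the RefSeq promoter table (GRCm38.p6). A gene can have several such starts, and those touched at Gm34201, Zfp428, Plppr2 and Gtpbp1 lie inside the gene, where the summits were 5212, 2445, 1185 and 777 bp downstream of the 5′ end of the span that serves as the gene start elsewhere. The octamer, searched on both strands as ATGCAAAT, was present in 5 of those 11 windows, against 1.75% of all 32585 windows. Each line gives the overlap of a member with its window, 5′ to 3′ on the strand of the gene, with octamers in capitals in whichever direction they read. In Cables2 the capitals at the end are an octamer truncated by the edge of the stretch. Etv5 and Gtpbp1, 2 of the 6 without the octamer, are also shown. The Etv5 overlap is 83 bp of a 219 bp stretch and leaves out its conventional summit.
Cables2 (chr2:180273518-180273715, minus strand): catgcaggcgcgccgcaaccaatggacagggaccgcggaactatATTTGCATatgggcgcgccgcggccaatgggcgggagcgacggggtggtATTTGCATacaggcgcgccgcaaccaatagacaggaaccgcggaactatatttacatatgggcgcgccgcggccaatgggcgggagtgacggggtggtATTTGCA
Plppr2 (chr9:21936823-21936991, plus strand): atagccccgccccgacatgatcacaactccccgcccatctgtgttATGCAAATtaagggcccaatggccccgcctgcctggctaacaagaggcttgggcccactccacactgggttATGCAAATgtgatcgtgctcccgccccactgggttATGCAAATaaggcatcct
Zfp428 (chr7:24506920-24507056, plus strand): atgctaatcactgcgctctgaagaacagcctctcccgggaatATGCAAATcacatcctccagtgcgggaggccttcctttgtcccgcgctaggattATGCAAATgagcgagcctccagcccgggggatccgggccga
H2ac6 (chr13:23684026-23684172, minus strand): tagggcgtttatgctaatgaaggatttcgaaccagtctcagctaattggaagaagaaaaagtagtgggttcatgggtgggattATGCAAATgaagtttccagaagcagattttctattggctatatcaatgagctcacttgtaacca
Gm34201 (chr15:84622114-84622292, minus strand): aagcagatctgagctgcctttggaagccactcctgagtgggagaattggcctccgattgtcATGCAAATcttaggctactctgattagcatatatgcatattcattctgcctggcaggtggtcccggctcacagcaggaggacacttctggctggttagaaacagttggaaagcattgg
Etv5 (chr16:22439738-22439820, minus strand): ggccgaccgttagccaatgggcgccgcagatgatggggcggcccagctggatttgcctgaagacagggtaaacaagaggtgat
Gtpbp1 (chr15:79690646-79690847, plus strand): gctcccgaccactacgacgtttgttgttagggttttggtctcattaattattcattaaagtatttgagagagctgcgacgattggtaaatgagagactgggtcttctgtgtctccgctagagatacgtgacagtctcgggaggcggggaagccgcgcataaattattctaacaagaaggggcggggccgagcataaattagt

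The overlap at Plppr2 held 3 octamers, those at Cables2 and Zfp428 held 2 each besides the truncated copy in Cables2, and those at H2ac6 and Gm34201 held 1 each. H2ac6 encodes a histone H2A, and octamers are long known from histone gene promoters, where the widely expressed factor OCT1 reads them. Gm34201, a long non-coding RNA gene, had the only member window with a joined SOX-OCT element, a form present in 0.0215% of all windows. The SOX core ACAAT occurred in 2 of 11 member windows, that of Gm34201 among them, and in 30.7% of all windows. The 11 member windows held a median of 17 CpG dinucleotides (range 4 to 43), against 7 (quartiles 3 and 20) over all windows. The member median thus lay between the quartiles of all windows. No such value is given for windows touched by other stretches.

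Among promoter windows touched by stretches without a conventional entry, 24 of 123 (19.5%, 95% Wilson interval 13.5 to 27.4) held the octamer. The interval for the 11 member windows was wide (45.5%, 21.3 to 72.0) and overlapped that one. Where these stretches were called in at least 1 bisulfite and at least 1 hmC-Seal library, 5 of 17 windows held it (29.4%, 13.3 to 53.1). The share was 24.1% (14.96 to 36.5) in windows touched by stretches called in hmC-Seal replicate 1 alone, and 6.67% (2.29 to 17.9) in those called in hmC-Seal replicate 2 alone. A match of these letters is a description of the window and does not show that OCT4 bound there.

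**Figure D1:**
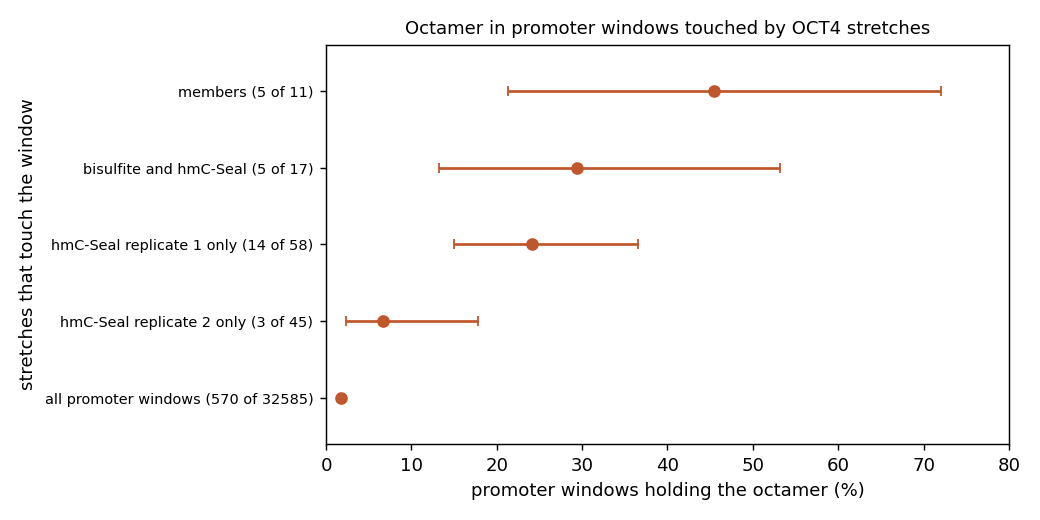
Percent of 300-base promoter windows that hold the octamer (x axis) for windows touched by members, by stretches without a conventional entry of 3 kinds, and for all windows (y axis, with numbers of windows). Points are shares and bars 95% Wilson intervals. The share ran from 45.5% at members to 6.67% for hmC-Seal replicate 2 alone and 1.75% over all windows, and the members' interval is the widest. It was 29.4% for stretches without a conventional entry called in at least 1 bisulfite and at least 1 hmC-Seal library.

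Most members were also called after bisulfite conversion and after hmC-Seal. Bisulfite replicate 1 held an entry at 189 members (69.2%, 63.5 to 74.4), against 16.2% of the stretches without a conventional entry. Bisulfite replicate 2 held one at 193 members (70.7%, 65.0 to 75.8), against 11.4%. With hmC-Seal, replicate 1 held 224 members (82.1%, 77.1 to 86.1), against 21.2%, and replicate 2 held 145 (53.1%, 47.2 to 58.9), against 70.8%. Members therefore lay above the other stretches in 3 libraries and below them in the fourth. A stretch without a conventional entry exists only because one of these 4 lists called it, and hmC-Seal replicate 2, with the longest list, supplied 10843 of the 15305. Intervals cover counting error only, since stretches are not replicates of a preparation.

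**Figure D2:**
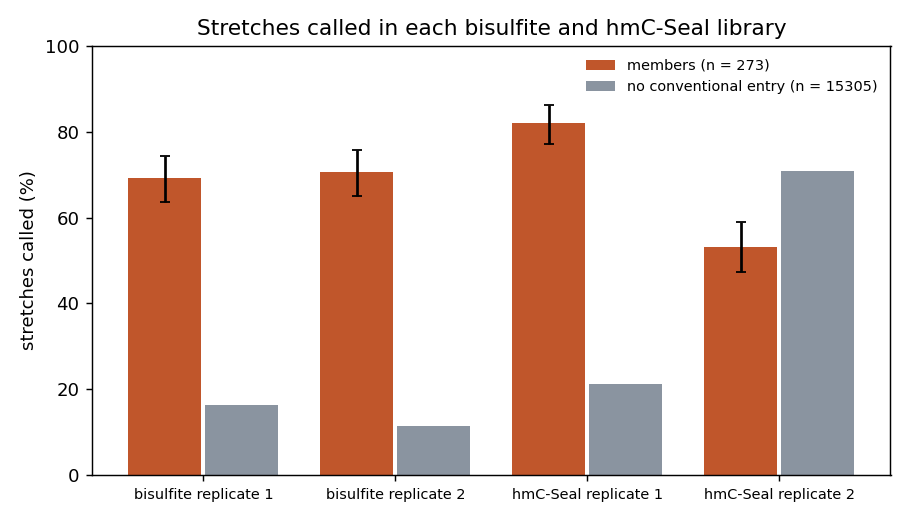
Percent of stretches called (y axis) in each bisulfite and hmC-Seal library (x axis), for the 273 members (orange, with 95% Wilson intervals) and the 15305 stretches without a conventional entry (grey). Members exceed the other stretches in bisulfite replicates 1 and 2 and hmC-Seal replicate 1, and lie below them in hmC-Seal replicate 2.

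Between preparations the libraries of hmC-Seal lay on both sides of those of bisulfite. Bisulfite libraries held 70.0% ± 1.04 (SD, n = 2) of the members and hmC-Seal libraries 67.6% ± 20.5 (SD, n = 2). The difference of 2.38 percentage points was smaller than the spread between the hmC-Seal replicates (two-sided exact permutation test over libraries, p = 1, where 2 libraries against 2 cannot give a p below 0.333). With lists of equal length, taking from each list its strongest 2077 entries, the difference was 15.4 points (p = 1, same exact permutation test).

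To set members against stretches that a given library had called, presence was counted within that library's own stretches. Of the 224 members in hmC-Seal replicate 1, 201 (89.7%) were in at least 1 bisulfite library, against 33.6% of the other stretches of that library. Of the 145 members in hmC-Seal replicate 2, 139 (95.9%) were, against 6.23%. In the other direction, 186 of the 189 members in bisulfite replicate 1 (98.4%) were in at least 1 hmC-Seal library, against 37.4%. For bisulfite replicate 2 the number was 191 of 193 (99.0%), against 54%. Within each of the 4 libraries, stretches that also had a conventional call were thus more often shared with the other modified preparation, hmC-Seal replicate 2 included.

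A call in both libraries of both modified preparations, bisulfite and hmC-Seal, was the commonest pattern. It was seen at 128 members (46.9%, 41.1 to 52.8), of which 56 were in both conventional libraries as well. With lists of equal length the share in all 4 was 25.6%. A further 46 members were in both bisulfite libraries and 1 hmC-Seal library. None of the 4 held 41 members (15.0%, 11.3 to 19.7). At least 1 library of each modified preparation held 203 (74.4%). A call in hmC-Seal without bisulfite was seen at 26 members (9.52%), against 77.6% of the stretches without a conventional entry, and a call in bisulfite without hmC-Seal at 3 (1.10%), against 13.7%. Every stretch without a conventional entry has a call in at least 1 of these preparations, whereas a member need not. Of the 15305 stretches without a conventional entry, 252 (1.65%) were in all 4 libraries. Put the other way, 128 of the 380 stretches in all 4 libraries (33.7%) had a conventional call. An entry missing from a list means that the stretch did not pass a q of 0.05 there, and the lists carry no read totals from which the depth behind that could be given.

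**Figure D3:**
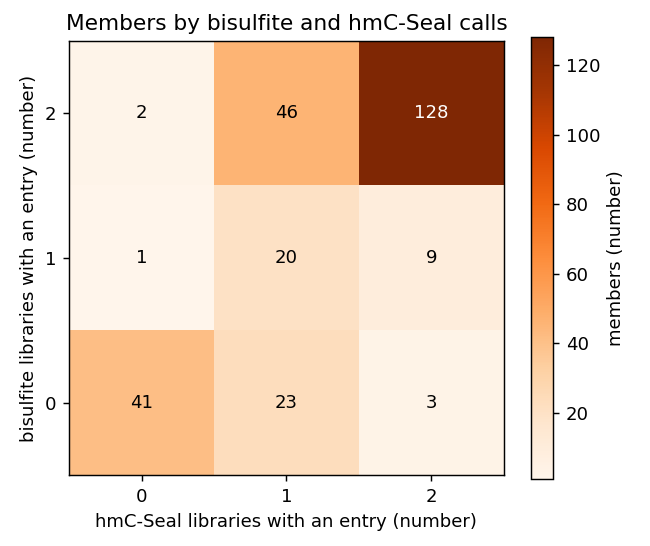
Members by the number of hmC-Seal libraries (x axis) and bisulfite libraries (y axis) that hold an entry; numbers in the squares and the colour scale give the number of members, 273 in all. The square for both libraries of each preparation holds 128 and that for none holds 41.

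At members, replicates of the modified preparations shared most of their calls. Of the 273 members, 99 (36.3%) were in both conventional libraries, 80 in replicate 1 alone and 94 in replicate 2 alone, shares that the rule itself bounds. Of the 206 members in at least 1 bisulfite library, 176 (85.4%) were in both, against 23.5% of the other bisulfite stretches. Of the 229 in at least 1 hmC-Seal library, 140 (61.1%) were in both, against 6.67%. Where both lists of a pair had called a member, their summits lay close together. The median distance from the conventional summit was 18 and 17 bp in bisulfite replicates 1 and 2 and 20 and 26 bp in hmC-Seal replicates 1 and 2, and 91.7 to 95.8% of these summits lay within 100 bp.

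The median fold enrichment over IgG was higher at members than at the other stretches of each modified list. The values are not normalized between lists, so they were compared only within a list and without a test. In bisulfite replicate 1 the median was 8.998 at members and 5.91 at the other stretches. In bisulfite replicate 2 these medians were 8.70 and 6.19. In hmC-Seal replicate 1 they were 13.4 and 7.24, and in hmC-Seal replicate 2 they were 6.92 and 4.32. Restricted to stretches called in all 4 libraries, the medians of members and of the others were 9.77 and 7.69, 9.86 and 7.91, 15.9 and 11.4, and 7.14 and 6.05 in the same order. In the conventional lists, which chose the members, the medians were 7.62 and 7.94.

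**Figure D4:**
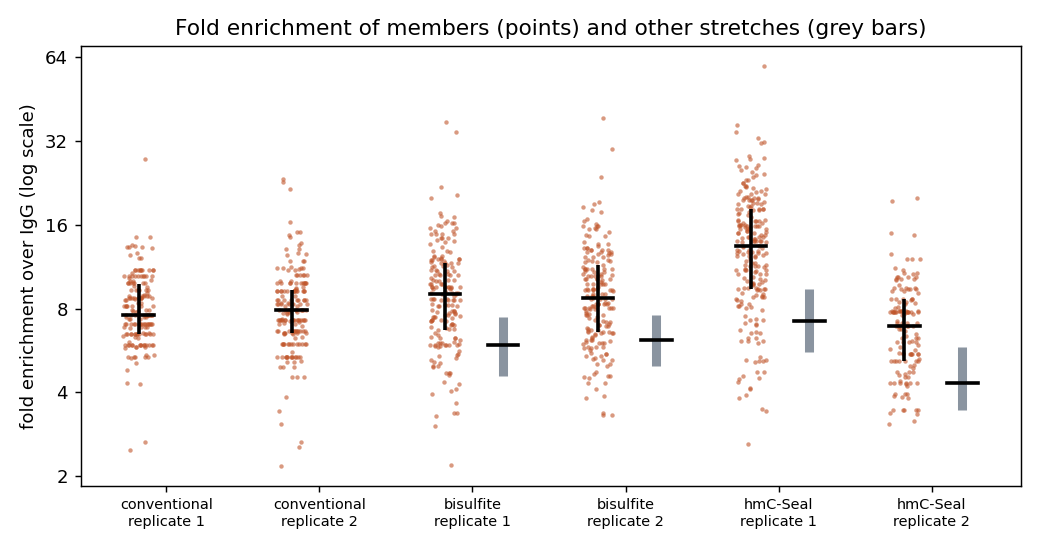
Fold enrichment over IgG (y axis, log scale) in each library (x axis). Orange points are members called in that library, the thin black line spans their quartiles, the thick grey bar spans the quartiles of stretches without a conventional entry, and horizontal ticks are medians. In hmC-Seal replicate 1 the median was 13.4 at members and 7.24 at the other stretches.

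The strongest stretches of 3 modified lists were often members. Of the 100 stretches of highest −log10 q in each list, 18 were members in bisulfite replicate 1, 32 in bisulfite replicate 2 and 46 in hmC-Seal replicate 1. Only 2 of the top 100 of hmC-Seal replicate 2 were members, although the median member there ranked in the top 14.4%. Members made up 7.07, 9.94, 6.45 and 1.32% of the stretches of these lists. Across members called in both, log2 fold enrichment correlated between the bisulfite replicates (Pearson r = 0.81, 176 members) and between hmC-Seal replicate 1 and bisulfite replicates 1 and 2 (r = 0.77 and 0.78, 186 and 189 members). The conventional replicates gave r = 0.66 over 99 members, hmC-Seal replicate 2 gave r between 0.51 and 0.54 with the other modified lists, and r between a conventional and a modified list ran from 0.38 to 0.52. These correlations are across sites that share the local sequence and mappability, and each includes only sites called in both lists.

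Members were wider than other stretches, with a median of 219 bp (range 96 to 1039) against 100 bp. Those in all 4 modified lists had a median of 252.5 bp and those in none 113 bp. A stretch widens when more lists contribute entries to it, so width and presence are not separate measures.

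The share of members inside gene spans was close to that of the other OCT4 stretches, while their median distance to gene starts was shorter. Of the 273, 123 (45.1%, 39.3 to 51.0) lay inside a gene span, against 43.8% of the stretches without a conventional entry. Protein-coding spans held 98 members (35.9%), against 35.7%. Long non-coding RNA spans held 29 (10.6%, 7.499 to 14.8), against 8.33%. Within 5 kb of a protein-coding start lay 27 members (9.89%, 6.89 to 14.0), against 7.71%, a value inside the members' interval. The median distance to the nearest protein-coding start was 41587 bp for members and 66094 bp for the others. Among stretches in all 4 modified lists it was 40598 bp for members and 47037.5 bp for the others. For the 41 members in none of these lists it was 72913 bp. A protein-coding start lay within 50 kb of 53.8% of members (47.9 to 59.7) and of 43.8% of the others. A start of any gene lay within 5 kb of 16.8% (12.9 to 21.7) and 12.2%, and the nearest start was that of a protein-coding gene for 57.5% (51.6 to 63.2) and 50.7%. In these 3 counts the value of the others lay outside the members' interval, which covers counting error only and is no test. Of the 15305 others, 10843 were called in hmC-Seal replicate 2. The 3 counts are not given for stretches in all 4 modified lists. There the median distance to a start of any gene was 23903.5 bp for members and 27267.5 bp for the others. Every autosome held between 8 and 21 members, or 1.13 to 2.53% of its stretches. Chromosome X, present once in male cells, held 5 of 846 (0.591%), and the part of copy number in this share was not tested.

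The member of strongest conventional calls in both replicates lay within Crlf2, which encodes a receptor subunit for the cytokine TSLP. This stretch (chr5:109557706-109558744), 1039 bp wide and with its summit 628 bp downstream of the gene start, was enriched 27.6-fold and 23.3-fold in conventional replicates 1 and 2. In the bisulfite replicates it reached 34.6-fold and 38.6-fold, and in the hmC-Seal replicates 59.5-fold and 19.9-fold. It was called in all 6 libraries, and its 59.5-fold was the highest value of any member in any library.

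The 12 strongest members by the lower of the conventional −log10 q values comprised 8 above 11.7 and 4 of 11 tied at 11.7, taken in order of chromosome name and position. Some lay inside long non-coding RNA genes. One lay 866 bp inside Gm39024 (chr7:63957129-63957378), a non-coding gene whose nearest protein-coding start is that of the zinc finger factor Klf13. It had 13.3-fold and 13.8-fold enrichment in the conventional replicates, 10.2-fold and 6.02-fold in bisulfite, and 18.3-fold and 9.08-fold in hmC-Seal. A pair on chromosome 10 lay 32194 bp apart inside the span of Gm15270. The first of the pair (chr10:24558449-24558642), nearest the start of Gm36089, had 12.7-fold and 15.1-fold conventional, 21.9-fold and 23.7-fold bisulfite, and 26.2-fold and 8.65-fold hmC-Seal enrichment. The second (chr10:24590616-24590927) had 12.2-fold and 10.5-fold, 15.2-fold and 16.5-fold, and 27.3-fold and 6.05-fold. All these were called in all 6 libraries, and so was a stretch inside Gm34098 (chr1:80237467-80237804), with 11.0-fold and 16.4-fold conventional and 25.2-fold hmC-Seal replicate 1 enrichment.

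Others of the 12 lay upstream of protein-coding genes. The stretch 7659 bp upstream of Slc9a9, a sodium/proton exchanger gene, had 14.4-fold and 10.5-fold conventional, 11.8-fold and 14.7-fold bisulfite, and 32.7-fold and 6.76-fold hmC-Seal enrichment. The stretch 17403 bp upstream of the cytochrome P450 gene Cyp2a12 had 12.5-fold and 11.1-fold conventional, 5.14-fold and 13.0-fold bisulfite and 9.36-fold hmC-Seal replicate 1 enrichment, with no entry in hmC-Seal replicate 2. The remaining 5 of the 12 had no bisulfite or hmC-Seal entry and are described with that class. Such members were 2 of the 8 above the tie and 5 of the 11 tied.

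**Figure D5:**
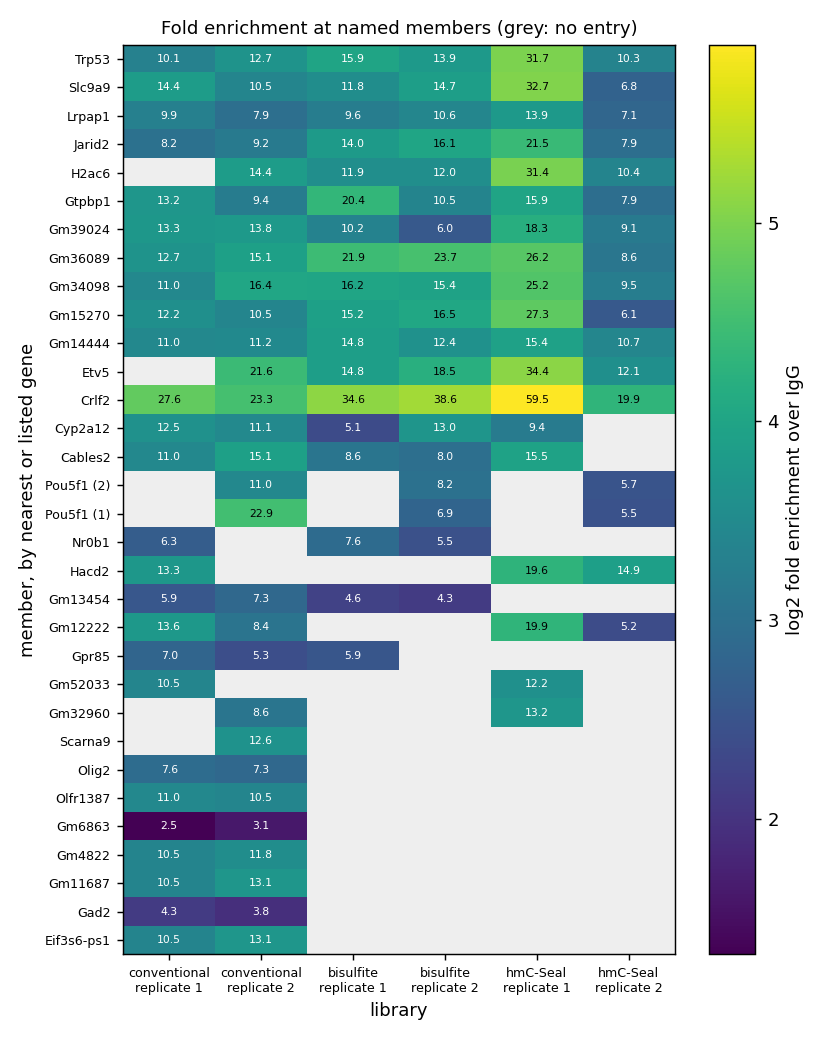
Fold enrichment over IgG at 32 named members (rows, by nearest or listed gene) in the 6 libraries (columns); numbers are fold enrichments, colour their log2, and grey means no entry. Members in all 4 bisulfite and hmC-Seal libraries are at the top and those in none at the bottom, and the values at Crlf2 reach 59.5.

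Near protein-coding starts, 16 of the 27 members (59.3%, 40.7 to 75.5) were in all 4 modified lists, against 46.9% of all members, a value inside that interval. Etv5 encodes an ETS factor that FGF signalling induces. A stretch 283 bp upstream of its start (chr16:22439738-22439956) had 21.6-fold enrichment in conventional replicate 2 and no entry in replicate 1. The same stretch reached 14.8-fold and 18.5-fold in bisulfite and 34.4-fold and 12.1-fold in hmC-Seal. At H2ac6, whose octamer is shown above, conventional replicate 2 had 14.4-fold enrichment and replicate 1 no entry, with 11.9-fold and 11.95-fold in bisulfite and 31.4-fold and 10.4-fold in hmC-Seal. Both promoters were thus called in every modified library and in only 1 conventional library.

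At Cables2, with its repeated octamers, both conventional replicates had entries of 11.0-fold and 15.1-fold. Its bisulfite values were 8.61-fold and 7.97-fold, and hmC-Seal gave 15.5-fold in replicate 1 and no entry in replicate 2. At Plppr2, with 3 octamers, the conventional values were 5.76-fold and 7.76-fold, the bisulfite values 11.3-fold and 12.2-fold, and the hmC-Seal values 21.9-fold and 9.44-fold. Zfp428 had 5.91-fold in conventional replicate 1, no bisulfite entry, and 16.5-fold and 7.78-fold in hmC-Seal. Presence in bisulfite therefore varied among promoters that carried the octamer.

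Trp53, which encodes p53, held a member 1716 bp inside the gene (chr11:69581899-69582159) with 10.1-fold and 12.7-fold conventional, 15.9-fold and 13.9-fold bisulfite, and 31.7-fold and 10.3-fold hmC-Seal enrichment. Gtpbp1, a gene for a GTP-binding protein, held one with 13.2-fold and 9.40-fold, 20.4-fold and 10.5-fold, and 15.9-fold and 7.87-fold in the same order. Lrpap1 encodes a chaperone of LDL receptor family proteins, and its member had 9.89-fold and 7.94-fold, 9.58-fold and 10.6-fold, and 13.9-fold and 7.08-fold. The predicted gene Gm14444 had a member 1848 bp upstream with 11.0-fold and 11.2-fold, 14.8-fold and 12.4-fold, and 15.4-fold and 10.7-fold. All 4 were called in all 6 libraries.

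Among 20 genes listed here under core pluripotency factors, a list drawn widely enough to include Jarid2, 3 had a member within 50 kb of their start. These were Jarid2, Pou5f1 and Nr0b1. Jarid2, a cofactor of Polycomb repressive complex 2, had one 25081 bp upstream (chr13:44705320-44705856) that was called in all 6 libraries. Its values were 8.18-fold and 9.24-fold conventional, 14.0-fold and 16.1-fold bisulfite, and 21.5-fold and 7.87-fold hmC-Seal. Nr0b1 encodes the orphan nuclear receptor DAX1, and its member 10558 bp upstream (chrX:86181155-86181284) was called in conventional replicate 1 (6.32-fold) and both bisulfite replicates (7.59-fold and 5.50-fold), with no hmC-Seal entry.

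Pou5f1 itself, the gene of OCT4, had a pair of members upstream of its start, inside the span of the non-coding gene Gm32362. The farther one, 2613 bp upstream (chr17:35503344-35503820), was called in replicate 2 of each preparation, with 22.9-fold conventional, 6.92-fold bisulfite and 5.52-fold hmC-Seal enrichment. The nearer one, 1742 bp upstream (chr17:35503955-35504539), was also called only in replicate 2 of each, with 11.0-fold, 8.17-fold and 5.72-fold. Of the 273 members, only these 2 had that pattern, and 4 had the reverse pattern of replicate 1 alone in each preparation. The part of the replicate 2 libraries in the Pou5f1 calls was not tested.

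The other lists held fewer such genes. Of 20 stem cell markers and OCT4 targets only Trp53 had a member within 50 kb, of 24 signalling genes only Etv5, and of 14 genes for DNA methylation and hydroxymethylation enzymes none. Of 18 lineage regulators only Olig2, a factor of oligodendrocyte and motor neuron lineages, had one. That member (chr16:91255250-91255407), nearer to Olig1, was called in both conventional libraries (7.62-fold and 7.29-fold) and in no modified library. Over all 96 listed genes 6 (6.25%) had a member within 50 kb, against 1.43% of protein-coding genes. The lists were compiled for their known roles in these cells and with earlier results of these data in view.

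The 41 members without a bisulfite or hmC-Seal entry included strong conventional calls. Of these, 16 (39.0%) were in both conventional libraries, against 56 of the 128 members (43.8%) in all 4 modified lists. The median of the higher conventional fold enrichment was 7.85 in the former class and 8.67 in the latter. One such member lay far from any gene start, nearest the pseudogene Eif3s6-ps1 (chr11:9971160-9971300), with 10.5-fold and 13.1-fold enrichment. Another pair of values, again 10.5-fold and 13.1-fold, was found inside Banf2os (chr2:144155890-144156040). Near the pseudogene Gm4822 (chr14:112366511-112366760) the values were 10.5-fold and 11.8-fold, and 7523 bp upstream of the olfactory receptor gene Olfr1387 they were 11.0-fold and 10.5-fold. A stretch inside Cep295 (chr9:15320749-15320857), nearest the small RNA gene Scarna9, had 12.6-fold enrichment in conventional replicate 2 alone.

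In 2 of these members a low fold enrichment went with the highest −log10 q values of the class. Inside the myosin gene Myo3a (chr2:22587745-22587853), nearest the start of Gad2, fold enrichment was 4.32 and 3.84 and −log10 q was 36.0 and 32.02 in conventional replicates 1 and 2. A further member of the class (chr2:22587974-22588103), its summit 248 bp away, had 2.18-fold enrichment and a −log10 q of 7.92 in conventional replicate 2 alone. Near Gm6863 (chr12:97061466-97061785) fold enrichment was 2.49 and 3.07 and −log10 q was 15.1 and 28.0. The higher conventional fold enrichment was under 5 at 11 of the 273 members, and 4 of those 11 were in no modified list.

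The 3 in bisulfite without hmC-Seal were that of Nr0b1, a stretch nearest Gm13454 (chr2:39468682-39469035) and one 13908 bp upstream of the orphan receptor gene Gpr85. At Gm13454 the values were 5.91-fold and 7.29-fold conventional and 4.64-fold and 4.32-fold bisulfite. At Gpr85 the conventional values were 7.05-fold and 5.34-fold and bisulfite replicate 1 had 5.85-fold.

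Of the 26 in hmC-Seal without bisulfite, the strongest conventional call lay 2731 bp downstream of the start of Gm12222 (chr11:54202004-54202242), with 13.6-fold and 8.41-fold conventional and 19.9-fold and 5.19-fold hmC-Seal enrichment. Inside Hacd2, which encodes an enzyme of very long chain fatty acid synthesis, conventional replicate 1 had 13.3-fold and hmC-Seal 19.6-fold and 14.9-fold. Near Gm52033 conventional replicate 1 had 10.5-fold and hmC-Seal replicate 1 had 12.2-fold. At the promoter of Gm32960 conventional replicate 2 had 8.59-fold and hmC-Seal replicate 1 had 13.2-fold. Of these 4, 2 had entries in both hmC-Seal libraries.

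At the edge of the rule, 4 members shared the lowest conventional −log10 q (1.33, in conventional replicate 2), and 2 of them were in all 4 modified lists. One of these, nearest Gm31752 (chr5:18565261-18565497), had 4.54-fold conventional, 11.7-fold and 10.1-fold bisulfite, and 19.9-fold and 11.0-fold hmC-Seal enrichment. Another of the 4, nearest Scarna9 (chr9:15319586-15319856), had 3.43-fold conventional enrichment, no bisulfite entry and an entry in 1 hmC-Seal library. Just outside the rule lay stretches called in all 4 modified lists with no conventional entry. The stretch nearest Gm33176 (chr1:35944428-35944641) had 18.5-fold and 19.8-fold bisulfite and 24.2-fold and 16.4-fold hmC-Seal enrichment, and that 22105 bp upstream of Tmem64 had 16.8-fold and 20.3-fold, and 31.5-fold and 14.6-fold.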

How the data were processed

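Peak lists of 6 OCT4 CUT&RUN libraries were analysed. The authors trimmed reads with fastp 0.19.4, aligned conventional reads with Bowtie 2 2.4.1 and other reads with Bismark 0.22.3 to GRCm38, kept inserts of at most 120 bp and, in bisulfite libraries, only methylated reads, and regarded all hmC-Seal reads as hydroxymethylated. They called peaks per library with MACS 2 against IgG (q of 0.05, every summit), without spike-in calibration; the IgG library used for hmC-Seal is not given in the sources used here. The deposited columns hold fold enrichment over IgG (a ratio), −log10 p and −log10 q, a score and positions; −log10 p and the score were not used in any result.

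Entries of all lists were merged into stretches, a stretch being left out if any summit lay in a dense bin. Positions are 1-based. Gene spans and promoter windows came from RefSeq tables of GRCm38.p6. The strand, which sets the gene start, was known for 35540 of 49554 genes and 96.7% of protein-coding genes, and a gene start is the 5′ end of the span, whereas promoter windows can surround other starts of a gene. Promoter windows on chromosome 18 were not analysed here. A genome sequence of GRCm38 was not used here, so motifs were searched only in promoter windows. The members and gene lists were chosen with earlier results of these data known. Named members are the 12 strongest by the lower conventional −log10 q, the 6 strongest in no modified list, up to 4 in each single modified preparation, those within 50 kb of a listed gene, and the 10 strongest within 5 kb of a protein-coding start. Zfp428, Plppr2 and Gm34201 were added for their sequences.

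Preparations were compared by a two-sided exact permutation test over libraries. Intervals are 95% Wilson intervals. The depth reached is unknown, since no read totals are in the lists. The methods of the study set lower read targets for the conventional OCT4 libraries than for the bisulfite and hmC-Seal ones. Scripts were tested on simulated data. Alternatives were other bin limits, a stricter q, another overlap, summits within 100 bp, both conventional libraries, lists of equal length, other gene sets, each library left out and pairing by replicate number. Analyses used Python 3.11.15 with scipy 1.17.1, pandas 2.3.3 and numpy 2.4.6.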

Additional observations from a re-analysis of the deposited data

How the results depend on the processing

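Of 89 recomputed values, 74 were counted as unchanged, 14 as moved and 1 changed sign. A share of members was unchanged if it stayed within its interval. The difference of bisulfite minus hmC-Seal was counted as unchanged in 13 cases where its sign held, although it went from 2.38 to as much as 16.8. The number of members has no interval, and 5 of its values, down to 193 from 273, were counted as unchanged. Requiring both conventional libraries left 99 members, of which 82.8% were in at least 1 bisulfite library and 56.6% in all 4 modified lists. With lists of equal length (2077 entries each), 75.5% were in at least 1 hmC-Seal library, 19.8% in no modified list and 25.6% in all 4, and bisulfite minus hmC-Seal was 15.4 points. With −log10 q of at least 3, 38.2% were in all 4. Protein-coding spans alone held 35.9%, and 16.8% lay within 5 kb of a start when all genes were used. Leaving out 1 conventional library gave 179 to 193 members. Leaving out any 1 library gave 69.3 to 78.2% in at least 1 bisulfite library and 53.1 to 84.9% in at least 1 hmC-Seal library. Counted over the modified lists that remained, 13.4 to 22.3% were in none and 46.9 to 63.7% in every one. The 63.7% came without hmC-Seal replicate 2, where 1 list fewer had to hold an entry. The difference of bisulfite minus hmC-Seal ran from -12.1 without hmC-Seal replicate 2 to 16.8 without hmC-Seal replicate 1, so its sign rested on a single library. With the replicate number as a block it was 2.38, from -12.8 and 17.6 within replicates 1 and 2 (exact sign-flip permutation test, p = 1). Between the bisulfite and hmC-Seal libraries, the replicate differences in log2 fold enrichment correlated at -0.07 over 128 members. That correlation was 0.19 over 61 members between conventional and hmC-Seal, and 0.05 over 72 between conventional and bisulfite. Conventional and bisulfite libraries of one number came from the same pool according to the methods of the study. With 0.05 at that known pairing, the correlation cannot tell whether the numbers pair the hmC-Seal libraries with the others.

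The lists hold called peaks alone, and a missing entry is a call not made, not a count of 0 reads. How far sequencing depth or the amount of DNA contributed to presence was not tested. With 2 libraries per preparation the smallest p that a comparison of preparations allows is 0.333.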

Other observations

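Members also occurred close to each other. Within 50 kb of one another lay 11 neighbouring pairs, and 7 of these were within 5 kb. They included pairs nearest Gm35426 on chromosome 1, with summits 3260 bp apart, Col14a1 on chromosome 15 (3158 bp), a collagen gene, and Gm40412 on chromosome 12 (2483 bp). The closest summits lay 248 bp apart nearest Gad2, 871 bp nearest Gm32362, 978 bp nearest Scarna9 and 1159 bp nearest Gm4822. These stretches did not overlap and so counted as separate members. The same count for the other stretches is not given here.

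Single-replicate conventional calls were not limited to weak ones. Upstream of Col14a1 (chr15:55264754-55264947), conventional replicate 1 had 13.3-fold enrichment and replicate 2 no entry, while the bisulfite replicates had 8.998-fold and 8.32-fold and the hmC-Seal replicates 15.5-fold and 4.72-fold.

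Uhrf2, which encodes a reader of hydroxymethylcytosine, was noticed after the values were seen and is not in the gene lists. Its member lay 1268 bp upstream of the gene start and was called in both bisulfite and both hmC-Seal libraries and in 1 conventional library, replicate 2 (6.64-fold). Its bisulfite values were 9.11-fold and 8.03-fold and its hmC-Seal values 12.4-fold and 4.32-fold.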
